A study of Macaca mulatta with 7 samples.

Results

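The genes described here are 9 genes of the glutamate synapse, measured as RNA in rhesus macaque sperm. They are the scaffold genes DLG4, SHANK1 and SHANK2, the NMDA receptor genes GRIN1, GRIN2A and GRIN2B, the AMPA receptor genes GRIA1 and GRIA2, and the metabotropic receptor gene GRM5. They were chosen by name from 18282 genes in the deposited table, and DLG4, GRM5 and SHANK1 were singled out because their sense counts differed most between the groups. The difference between groups is therefore given for the 9 genes as values and fold changes, with no p-value, and tests are given for the table as a whole. Total RNA was sequenced from 3 sperm samples labelled Maltreated, of ages 5.67, 5.71 and 5.78 years, and from 4 labelled Control, of ages 5.72, 5.82, 5.88 and 5.92 years. All 7 samples were rhesus macaque (Macaca mulatta) sperm taken through a PureSperm 40/80 density gradient and extracted with TRIzol. The series title speaks of early life stress, and the labels do not say what the maltreatment was.

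At an excitatory synapse, glutamate released by 1 neuron opens AMPA receptors, which carry the fast current, and NMDA receptors, which admit calcium when the membrane is already depolarised. The metabotropic receptor made by GRM5 acts more slowly through a G protein and releases calcium from stores inside the cell. DLG4 encodes PSD-95, a scaffold whose PDZ domains hold NMDA receptor tails in place, and the SHANK proteins form a deeper layer that ties this scaffold to Homer, GRM5 and the actin skeleton. These genes are known from brain. The position of the reads on each gene is given beside the level.

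The libraries held 6160996 to 30715268 sense counts (reads on a gene's own strand, summed over its exon entries) in Maltreated sperm and 5316383 to 9847743 in Control sperm. The deepest was Maltreated 1. Genes of sperm and spermatids, with the protamines among them, summed to 45110 to 97577 CPM (counts-per-million of the library) in Maltreated and 46406 to 59069 CPM in Control libraries, and all 10 listed had counts in every library. Listed neuron genes summed to 51.7, 33.8 and 13.7 CPM in Maltreated 1 to 3, against 13.4, 14.7, 26.5 and 71.9 CPM in Control 1 to 4. Of 10 such genes, 6 to 10 had a count in a Maltreated library and 7 or 8 in a Control library. SNAP25, RBFOX3 and MAP2 had a count in every library. SYN1, a synaptic vesicle gene, was at 0 in Maltreated 2 and 3 and Control 1 and 4. The 6 glia genes, of which 3 to 6 had a count in a Maltreated and 3 to 6 in a Control library, summed to 69.5, 29.2 and 16.3 CPM in Maltreated and to 11.2, 7.96, 14.0 and 38.6 CPM in Control libraries. The astrocyte gene AQP4 was at 0 in Maltreated 2 and 3 and Control 3 and 4, and the myelin gene MOG in Maltreated 2 and Control 2, 3 and 4. GFAP and MBP, also among the glia genes, had a count in every library. The 12 leukocyte genes, of which 10 or 11 had a count in a Maltreated and 6 to 10 in a Control library, summed to 1002 CPM in Maltreated 3 and 682 CPM in Control 4, and to 6.19 to 51.1 CPM in the other 5 libraries. The 9 genes of testis somatic cells summed to 36.9, 25.2 and 21.2 CPM in Maltreated 1 to 3, against 10.7, 49.9, 28.7 and 79.9 CPM in Control 1 to 4, and the 8 of epithelium and accessory glands to 4.95 to 27.9 CPM in Maltreated and 16.4 to 296 CPM in Control libraries, with the highest in Control 2. The part of neuron, glia, leukocyte, testis somatic and epithelium genes in the results was not tested. In such bulk samples, fewer cells of a type and less RNA per cell cannot be told apart.

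**Figure D1:**
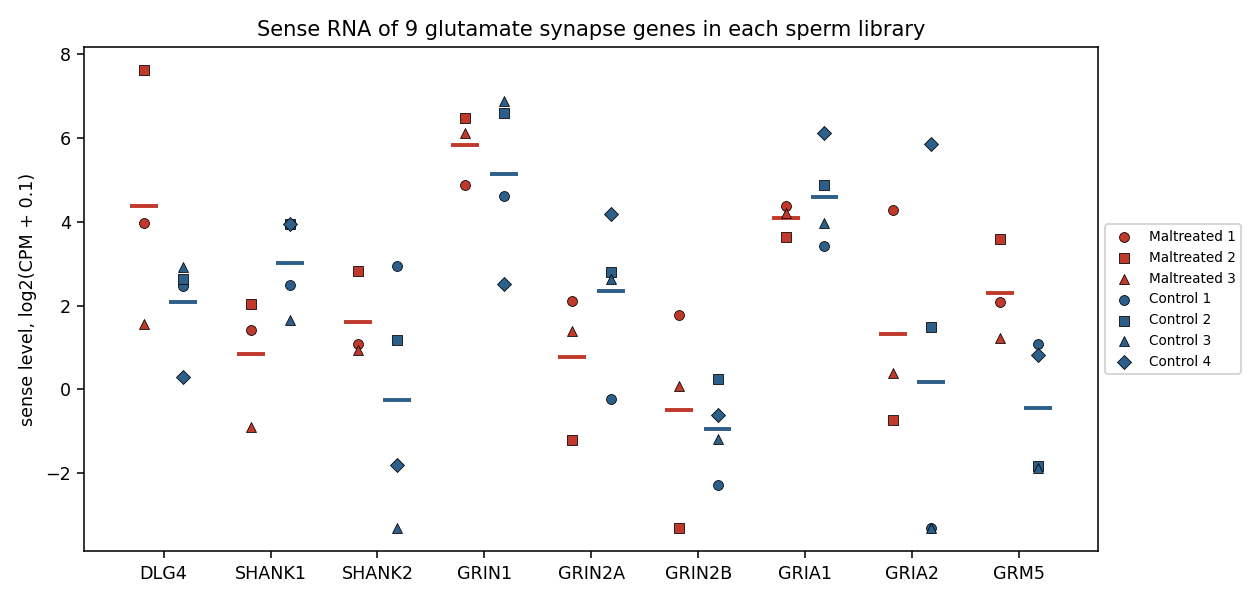
Sense RNA of the 9 genes, as log2(CPM + 0.1) on the vertical axis, with 1 point per library (Maltreated in red, Control in blue, marker shape for the replicate number) and a bar at each group's mean of the plotted values. The points of 1 group spread widely, and DLG4 stands at 197 CPM in Maltreated 2 alone.

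Measured per kilobase of listed exon, the sense levels ran from the middle of all tested genes to near the bottom. The median over the 7 libraries was 3.53 CPM per kb for GRIN1 and 3.25 for GRIA1, close to the middle of the 10719 tested genes, of which 49.1% and 47.4% had a lower median. DLG4 followed at 0.837 CPM per kb, SHANK1 at 0.606, GRIN2A at 0.303, GRM5 at 0.253, SHANK2 at 0.104, GRIN2B at 0.0943 and GRIA2 at 0.0679. The SD over the libraries was 0.160 to 9.79 CPM per kb, and no gene differed from the next in this order by more than the SD of either. The level of GRIN1 includes many equal counts on neighbouring exons, described below. Of the 9 genes, 8 had enough sense counts to enter the edgeR fit across all genes and GRIN2B did not. As background, that fit called 0 of 10719 genes (0%) at an adjusted p under 0.05, with 191 at an unadjusted p under 0.05, and the DESeq2 Wald test called 3.

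DLG4, on the minus strand of chromosome 17 from 7087950 to 7119559 in the coordinates of the deposited files, had the largest log2 fold change among the 8 tested members. Its sense counts were 462, 1176 and 33 in Maltreated 1 to 3, against 51, 34, 44 and 6 in Control 1 to 4. These correspond to 15.5, 197 and 2.86 CPM in Maltreated and 5.44, 6.16, 7.52 and 1.12 CPM in Control libraries. Maltreated 1 and 2 lay above all Control libraries and Maltreated 3 lay within them, so the groups overlapped. The means were 71.7 ± 108 CPM (SD, n = 3) in Maltreated and 5.06 ± 2.76 CPM (SD, n = 4) in Control sperm, and the log2 fold change (positive where Maltreated is higher) was 3.82 ± 1.18 (SE).

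The high DLG4 count of Maltreated 2 was made of equal counts on every exon. The gene is listed with 42 exon entries, of which 24 are distinct, and these merge into 23 exon blocks, numbered here from the 5' end. In Maltreated 2 all 23 blocks carried exactly 28 reads. On 42 entries this sums to the deposited count of 1176. Reads covered 863 of the 1225 bases of block 1 and all bases of the blocks after it. The same 28 stood on all 9 distinct exons of ASGR1 and all 9 of ASGR2, the asialoglycoprotein receptor genes beside DLG4 on the same strand. The stretch with at least 28 reads on every exon ran from ALOX12 to DLG4, from 6885155 to 7119559, which is 234 kb with 10 genes, and 87 of its 92 distinct exons stood at 28. The files give counts per exon and not single reads, so whether the same reads crossed all these exons was not tested.

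In Maltreated 1 the picture was different. All 23 blocks of DLG4 had reads, but their counts varied from 4 to 22, with a median of 10. In the other libraries 9 blocks had reads in Maltreated 3, against 7, 7, 6 and 2 in Control 1 to 4, with at most 9 reads on a block. A further measure took from each block the smaller count of the blocks beside it, so that a count shared by a row of blocks drops out. On it DLG4 held 2.51, 0 and 1.68 CPM (of all sense counts, without TMM factors) in Maltreated 1 to 3, against 2.13, 3.08, 2.67 and 0.564 in Control 1 to 4. Each block counts once here, whereas the deposited counts repeat exons that are listed more than once. For DLG4 these CPM are therefore on a lower scale than the gene levels. The groups overlapped on this measure too, and the log2 fold change was -0.36. Exonic reads spread evenly over neighbouring blocks drop out of the measure as well. It kept 31.4, 0 and 90.0% of DLG4 reads in Maltreated 1 to 3, against 80.8, 100, 72.7 and 100% in Control 1 to 4. The value of -0.36 is therefore not the DLG4 difference with only the runs removed. On the deposited counts the log2 fold change was 0.84 without Maltreated 2 and 1.00 by limma-voom with sample quality weights.

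**Figure D2:**
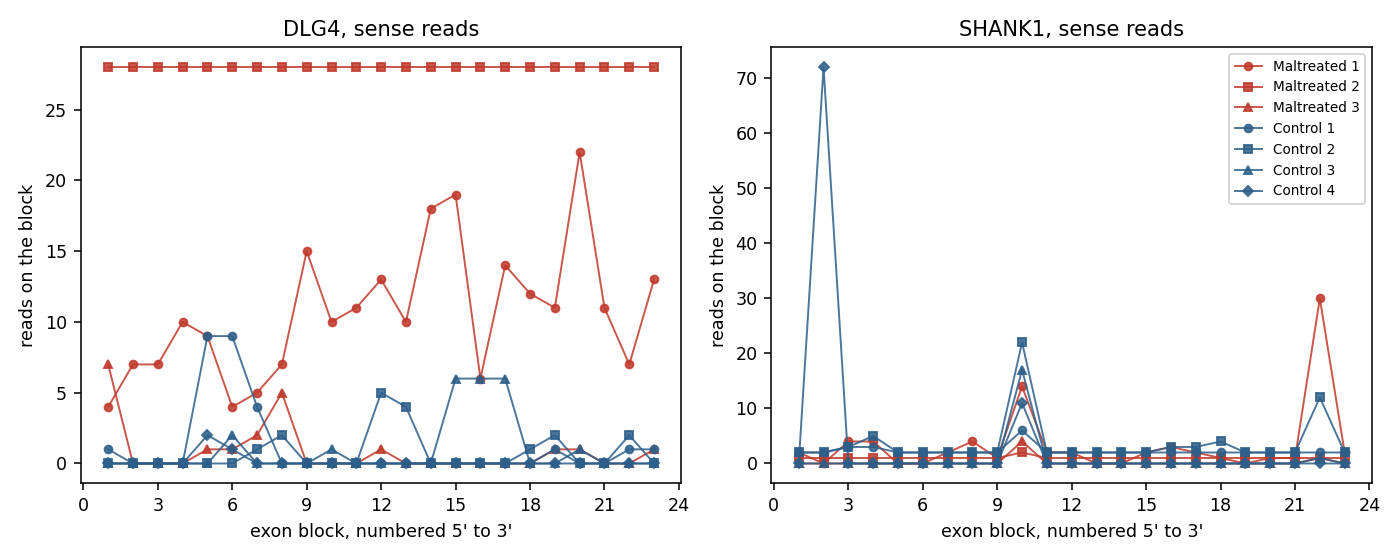
Sense reads on each exon block, numbered from the 5' end, of DLG4 (left) and SHANK1 (right), with 1 line per library (Maltreated red, Control blue). DLG4 in Maltreated 2 is a flat line at 28 reads on all 23 blocks and varies from 4 to 22 in Maltreated 1, and SHANK1 has 72 reads on block 2 in Control 4 alone and reads on block 10 in all 7 libraries.

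SHANK1, on the minus strand of chromosome 19 from 45527172 to 45581070, had a lower mean in Maltreated sperm. Its sense levels were 2.58, 4.01 and 0.434 CPM in Maltreated 1 to 3, against 5.55, 15.2, 3.07 and 15.5 CPM in Control 1 to 4. Only Maltreated 2 lay above the lowest Control library, Control 3. The means were 2.34 ± 1.80 CPM (SD, n = 3) in Maltreated and 9.83 ± 6.45 CPM (SD, n = 4) in Control sperm. The log2 fold change was -2.07 ± 1.12 (SE) and stayed between -2.69 and -1.28 in all 18 alternatives. These reuse the libraries in which SHANK1 was singled out for its difference, so nothing is read from the steady sign.

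In Maltreated 2, Control 1 and Control 2 every one of the 23 exon blocks of SHANK1 had at least 1, 2 and 2 reads, and 22, 20 and 16 of the blocks stood at exactly that number. In Maltreated 1, 30 of 77 reads lay on block 22, a long block of 3099 of the 6627 merged bases. In Control 4, 72 of 83 reads lay on block 2, where they covered 99 of its 203 bases. Block 10, from 45568264 to 45568593, was the only block of SHANK1 with reads in all 7 libraries, with 14, 2 and 4 reads in Maltreated 1 to 3, against 6, 22, 17 and 11 in Control 1 to 4. In Maltreated 3, Control 3 and Control 4 these reads covered 22, 28 and 20 of its 330 bases. Counted above the lower neighbour, SHANK1 held 0.162 to 2.12 CPM in Maltreated and 0.609 to 15.6 in Control libraries.

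SHANK2, a related scaffold gene on the plus strand of chromosome 11 from 3499152 to 4099351, had few sense reads. Its levels were 2.01, 7.03 and 1.82 CPM in Maltreated 1 to 3, against 7.58, 2.17, 0 and 0.186 CPM in Control 1 to 4. The groups overlapped, and the log2 fold change was 0.52 ± 1.55 (SE). It was 3.47 with age as a covariate and -0.42 without Maltreated 2. Of its 21 blocks, block 13 had 6, 10 and 5 reads in Maltreated 1 to 3, against 9, 1, 0 and 0 in Control 1 to 4. Block 14 had 2, 10 and 5 reads in Maltreated 1 to 3, against 8, 5, 0 and 0 in Control 1 to 4. Maltreated 2 and 3 each had reads on only 1 other block. The sense count of 0 in Control 3 allows up to 0.4998 CPM of all sense counts (a floor of 3 counts, for counting error only). That floor takes each read as 1 count. SHANK2 bases are listed 1.82 times on average, so 1 read can add more than 1 count and the true limit is higher.

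GRIN1 encodes the subunit that every NMDA receptor contains. It lies on the plus strand of chromosome 9 from 109896944 to 109926768. Its sense counts were 874, 535 and 799 in Maltreated 1 to 3, against 228, 534, 693 and 30 in Control 1 to 4. In CPM these were 29.3, 89.5 and 69.4 in Maltreated and 24.3, 96.8, 118 and 5.59 in Control libraries. Maltreated libraries lay within the range of Control libraries, and the log2 fold change was 0.03 ± 0.83 (SE).

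Much of this GRIN1 count was again made of equal counts on neighbouring blocks, 50.6% over all libraries. Its 21 exon blocks are listed as 99 exon entries, so its bases are listed 4.62 times on average and 1 count on every entry adds 99. In Maltreated 2 and 3 the commonest block count was 5 on 20 blocks and 8 on 19 blocks. In Control 1, 2 and 3 it was 2 on 18, 5 on 18 and 7 on 21 blocks. The run of at least 7 reads in Control 3 continued past GRIN1 through LRRC26, ANAPC2, SSNA1, TPRN and TMEM203 into NDOR1, over 74.4 kb. These 5 libraries covered 100% of the listed bases of GRIN1 with at most 13 reads on any block. In Maltreated 1 the counts varied from 3 to 17 with a median of 10, and in Control 4 a single block had 6 reads and the other 20 had 0. Counted above the lower neighbour, GRIN1 held 2.25, 1.30 and 0.187 CPM in Maltreated 1 to 3. In Control 1 to 4 it held 0.609, 1.63, 0 and 1.13 CPM, and the groups overlapped. Here too each block counts once, so these CPM are not comparable with the gene levels of GRIN1. In Maltreated 1 the blocks summed to 179 reads before the subtraction, against a deposited count of 874.

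Control 4 had GRIN1 reads on the other strand instead. Its antisense count was 3866, against 0 in Control 1, 2 and 3, and it was 40, 25 and 77 in Maltreated 1 to 3. It had 39 reads on 20 of the 21 blocks and 40 on the last. They belonged to a run of at least 39 reads from FBXW5 to LRRC26, from 109686877 to 109927971, a stretch of 241 kb with 18 genes annotated on both strands. The log2 fold change of GRIN1 antisense RNA was -4.75 ± 2.81 (SE), with all Control counts in Control 4.

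**Figure D3:**
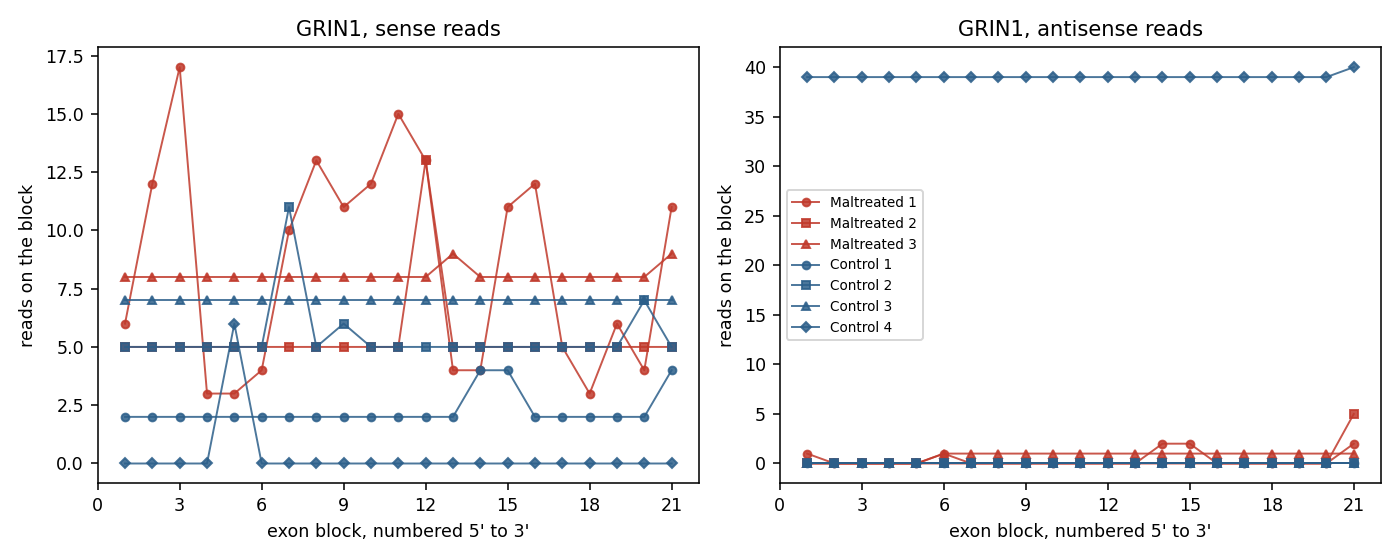
Reads on the 21 exon blocks of GRIN1, numbered from the 5' end, on the sense strand (left) and the antisense strand (right), with 1 line per library (Maltreated red, Control blue). Lines that are flat over most blocks, at 8, 7, 5, 5 and 2 sense reads, stand beside the uneven profile of Maltreated 1, and Control 4 has 39 or 40 antisense reads on every block.

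GRIN2A and GRIN2B encode the NMDA receptor subunits that bind glutamate. GRIN2A, on the minus strand of chromosome 16 from 9736178 to 10232963, had 4.22, 0.335 and 2.52 CPM in Maltreated 1 to 3, against 0.747, 6.89, 6.15 and 18.3 CPM in Control 1 to 4. The groups overlapped, and the log2 fold change was -1.74 ± 1.27 (SE). In Control 4, the highest library, 97 of 98 reads lay on block 8, on 48 of its 125 bases. Without Control 4 the log2 fold change was -0.95.

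GRIN2B, on the minus strand of chromosome 12 from 14193892 to 14613195, had 99, 0 and 11 sense counts in Maltreated 1 to 3, against 1, 6, 2 and 3 in Control 1 to 4. In Maltreated 1, 12 of its 13 blocks had reads and 45 of the 99 lay on block 13, the last. That block is long, from 14193892 to 14197056, in a gene of 5930 merged bases. No other library had reads on more than 3 blocks. In Maltreated 2 the count of 0 allows up to 0.487 CPM on the same scale. Scaled to depth the levels were 3.32, 0 and 0.955 CPM in Maltreated and 0.107, 1.09, 0.342 and 0.559 CPM in Control libraries, and the groups overlapped.

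The AMPA receptor genes differed from each other in how their reads were placed. GRIA1, on the plus strand of chromosome 5 from 151254288 to 151628183, had 20.9, 12.4 and 18.5 CPM in Maltreated 1 to 3, against 10.7, 29.4, 15.7 and 69.1 CPM in Control 1 to 4. All Maltreated libraries lay within the Control range, and the log2 fold change was -0.85 ± 0.70 (SE), or -0.12 without Control 4. In Control 4 the neuron, leukocyte and testis somatic genes stood at 71.9, 682 and 79.9 CPM. The genes of epithelium and accessory glands stood at 16.4 CPM there. The part of these genes in the GRIA1 level was not tested. Blocks 1 and 2, at the 5' end, held 82.3, 93.2 and 87.3% of the GRIA1 reads in Maltreated 1 to 3 and 95.0, 93.2, 66.3 and 99.7% in Control 1 to 4. The rest of the gene, 14 blocks, had reads on 13 blocks in Maltreated 1 and on at most 4 in any other library.

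The same GRIA1 blocks carried antisense reads. Antisense counts were 142, 120 and 44 in Maltreated 1 to 3, against 35, 26, 0 and 70 in Control 1 to 4. Scaled to the antisense counts of each library, they were 57.7, 221 and 53.4 CPM in Maltreated and 46.6, 56.2, 0 and 101 CPM in Control libraries. Blocks 1 and 2 held 90.9 to 100% of the antisense reads in each of the 6 libraries with any. In 5 of the 6 the antisense reads on block 2 covered 65.0% of it, in Maltreated 3 67.9%.

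GRIA2, the AMPA subunit that makes the channel impermeable to calcium after RNA editing, lies on the plus strand of chromosome 4 from 157122638 to 157273035. Its levels were 19.2, 0.502 and 1.22 CPM in Maltreated 1 to 3, against 0, 2.72, 0 and 58.1 CPM in Control 1 to 4. In Maltreated 1 all 16 blocks had reads, 3 to 39 each. In Control 4, 90 of 104 reads lay on block 4, over 92 of its 196 bases, and the other 14 on block 11. The log2 fold change of -1.11 ± 2.03 (SE) became 2.95 without Control 4 and -4.07 without Maltreated 1. With each read taken as 1 count, the sense counts of 0 allow up to 0.305 CPM in Control 1 and 0.4998 in Control 3. GRIA2 bases are listed 2.87 times on average, so the true limits are higher.

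GRM5, on the minus strand of chromosome 11 from 80258675 to 80831107, had more sense RNA in each Maltreated than in each Control library. Its counts were 123, 71 and 26 in Maltreated 1 to 3, against 19, 1, 1 and 9 in Control 1 to 4. The levels were 4.12, 11.9 and 2.26 CPM in Maltreated and 2.03, 0.181, 0.171 and 1.68 CPM in Control libraries. The lowest Maltreated and the highest Control library differed little. The means were 6.08 ± 5.10 CPM (SD, n = 3) in Maltreated and 1.01 ± 0.978 CPM (SD, n = 4) in Control sperm, and the log2 fold change was 2.55 ± 1.29 (SE). Among all tested genes, 2.1% were likewise higher in Maltreated sperm with no overlap of the groups, 1.49% were lower with none, and 3.59% had none in either direction. GRM5 was 1 of the 8 tested members to do so and the other 7 overlapped. Nothing is read from this, since the gene was chosen on this contrast.

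The GRM5 reads lay on different exons in different libraries. In Maltreated 2, 65 of 71 reads lay on block 8, from 80321547 to 80322485, where they covered 98 of 939 bases. In Maltreated 1, 9 of 10 blocks had reads, up to 31 on block 3. In Maltreated 3 the 26 reads lay on blocks 3 to 6, while in Control 1 block 3 held 13 of 19. No run of identical counts was found in GRM5. Counted above the lower neighbour it held 2.77, 11.5 and 1.497 CPM in Maltreated 1 to 3, against 1.93, 0.181, 0.167 and 1.69 in Control 1 to 4, and on this measure the groups overlapped. The log2 fold change was 1.62 without Maltreated 2 and stayed above 0 in all 18 alternatives. As for SHANK1, nothing is read from the steady sign.

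**Figure D4:**
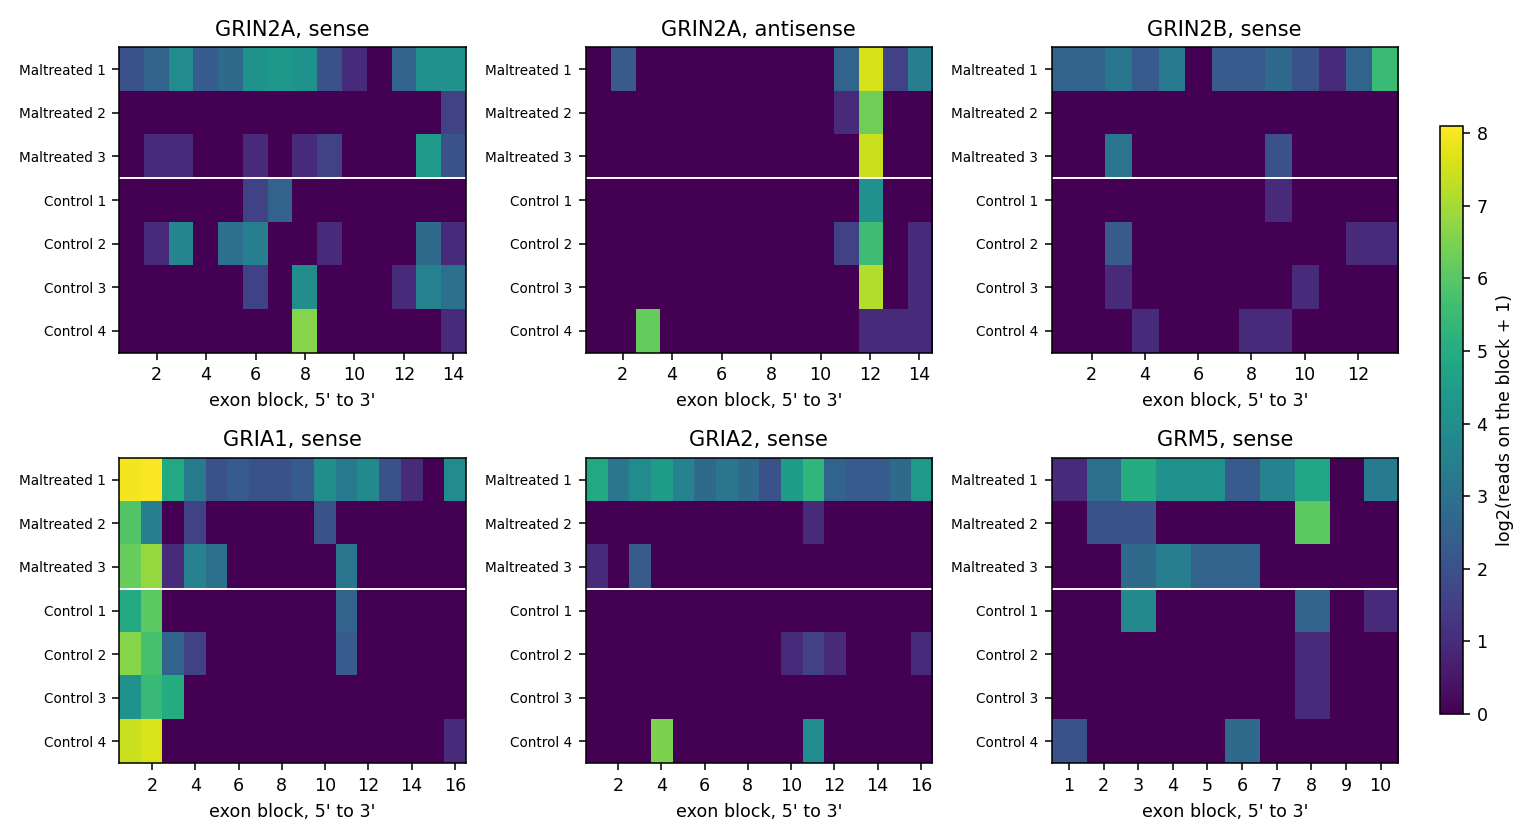
Reads on each exon block (horizontal axis, numbered from the 5' end) in each library (rows, Maltreated above the white line and Control under it), as log2(reads + 1) in colour, for GRIN2A sense and antisense, GRIN2B, GRIA1, GRIA2 and GRM5 sense. On the sense strand Maltreated 1 has reads on most blocks of each gene, GRIA1 has 66.3 to 99.7% of its reads on blocks 1 and 2 in each library, and GRIN2A antisense reads lie on block 12 in all libraries, with 1 read there in Control 4.

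Antisense reads (on the strand opposite the gene) made up 1.61% of all counts of GRIA2, 4.90% of DLG4, 7.55% of SHANK1, 12.9% of GRM5 and 21.1% of GRIA1, and 52.0% of GRIN1, 62.5% of GRIN2B, 68.6% of SHANK2 and 69.2% of GRIN2A, summed over the 7 libraries. Single libraries set several of these shares. Without Control 4 the share was 3.73% for GRIN1, 9.85% for GRIN2B and 2.42% for GRIA2. It was 1.83% for DLG4, 1.48% for SHANK1 and 2.55% for GRIA2 without Maltreated 1, 12.7% for DLG4 without Maltreated 2, and 0.649% for GRIA2 without Control 3. Over whole libraries the share was 6.15 to 9.69% in Maltreated and 6.85 to 12.1% in Control sperm. GRIN2A had 86.7% of its antisense reads on block 12, from 9754333 to 9754570, with 194, 81 and 173 reads in Maltreated 1 to 3, against 16, 47, 142 and 1 in Control 1 to 4. In Control 4, which had 1 read there, 72 of 75 GRIN2A antisense reads lay on block 3. GRIN2B had 190 antisense counts in Control 4, 102 of them on block 3 and 73 on block 4, against 0 or 1 in the other Control libraries and 12, 0 and 0 in Maltreated 1 to 3. SHANK2 antisense counts were 54, 0 and 18 in Maltreated 1 to 3, against 150, 14, 0 and 217 in Control 1 to 4. Scaled to the antisense counts of each library, they were 21.9, 0 and 21.9 CPM in Maltreated and 200, 30.2, 0 and 313 CPM in Control libraries. In Control 1, 9 SHANK2 blocks had 7 to 13 antisense reads, with 8 on 6 of them. In Control 4, 47 lay on block 20 (2429 bases), 46 on block 21 (5599 bases) and 1 on each of 11 blocks. The commonest count of 1 in Control 4 was shared by CTTN and PPFIA1, minus-strand genes within 100 kb. Whether the SHANK2 antisense reads came from them was not tested. Of the DLG4 antisense reads, 69.7% lay on block 1, at the 5' end. ACADVL, a gene on the plus strand, overlaps the listed span of DLG4, so antisense reads of DLG4 lie on ACADVL's own strand. Whether they came from ACADVL was not tested.

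Of the 9 members, 4 entered the antisense fit, which as background called 0 of 4382 genes (0%) by edgeR, with 110 at an unadjusted p under 0.05, and 13 by DESeq2. The other 3 log2 fold changes were 1.11 ± 1.47 (SE) for GRIA1, 0.21 ± 1.13 for GRIN2A and -3.19 ± 1.96 for SHANK2. The groups overlapped in all 4 genes, so 0 of 4 were free of overlap, against 2.85% of all tested genes higher, 1.51% lower and 4.36% in either direction.

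Over all members the libraries differed in how many exon blocks had reads. Of 157 exon blocks, 135, 79 and 56 had sense reads in Maltreated 1 to 3, against 69, 73, 40 and 18 in Control 1 to 4. Blocks that stood above their lower neighbour numbered 92, 14 and 32 in Maltreated and 25, 36, 16 and 17 in Control libraries. Maltreated 1 had the most on both counts and also the greatest depth, so its breadth cannot be told apart from its depth. Blocks with at least 3 reads and the same count as both neighbours held 60.8% of the DLG4 reads, 50.6% of GRIN1 and 7.69% of SHANK2, and none of the other 6 genes.

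A wider list of 67 genes of the glutamate synapse, with the 9 members in it, had 38 tested genes, of which 30 are not members. Over the 38, edgeR called 0 and DESeq2 called 0. At an unadjusted p under 0.05 by edgeR stood 0 of the 30 and 1 member, which was among genes chosen on this contrast and is no support. Of the 30, 9 had a fold change above 0 and 21 below, with a median log2 fold change of -0.33. Over all tested genes 48.7% were above 0 and the median was -0.02. DLG1, which encodes SAP97, a relative of PSD-95 found in many cell types, had 1116 ± 112 CPM (SD, n = 3) in Maltreated and 1064 ± 33.99 CPM (SD, n = 4) in Control sperm. HOMER1, whose protein links SHANK to GRM5, had 188 ± 36.6 CPM (SD, n = 3) in Maltreated and 152 ± 41.9 CPM (SD, n = 4) in Control sperm. DLGAP4, a gene of a PSD-95 binding protein, had 47.8 ± 40.8 CPM (SD, n = 3) in Maltreated and 36.4 ± 9.36 CPM (SD, n = 4) in Control sperm.

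Among the genes below 0, GRIN3B, a further NMDA receptor subunit gene, had 88.7 ± 39.2 CPM (SD, n = 3) in Maltreated and 155 ± 85.3 CPM (SD, n = 4) in Control sperm. HOMER2 had 17.8 ± 4.83 CPM (SD, n = 3) in Maltreated and 32.8 ± 11.96 CPM (SD, n = 4) in Control sperm. SLC17A6, a vesicular glutamate transporter gene, had 1.11 ± 0.853 CPM (SD, n = 3) in Maltreated and 7.53 ± 11.6 CPM (SD, n = 4) in Control sperm, with 24.6 CPM in Control 4. The log2 fold changes of these 6 genes ran from -2.74 to 0.39, all with an adjusted p of 0.999 by edgeR, and their groups overlapped.

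The genes most like a member across the libraries were found by Pearson's r of log2 CPM over the 7 libraries among 10719 genes, as a description. For DLG4 they included ZNF20 (r = 0.98) and TTC40 (r = 0.96), and ZNF20 stood at 44.4, 215 and 24.5 CPM in Maltreated 1 to 3, against 38.2, 46.8, 39.97 and 19.0 CPM in Control 1 to 4. TTC40 stood at 257 CPM in Maltreated 2 and at 32.4 to 92.7 CPM in the other libraries. DLG4 was also highest in Maltreated 2, where all its blocks held equal counts, and r without that library was not computed. For GRM5 the genes most like it were SFMBT1, HHIPL2 and ASCC3 (r = 0.95 to 0.96), and for SHANK1 CLEC4D, CREBBP and GRB7 (r = 0.96 to 0.98). These genes were picked as the highest of all r values, and the points share library, depth and scaling.

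**Figure D5:**
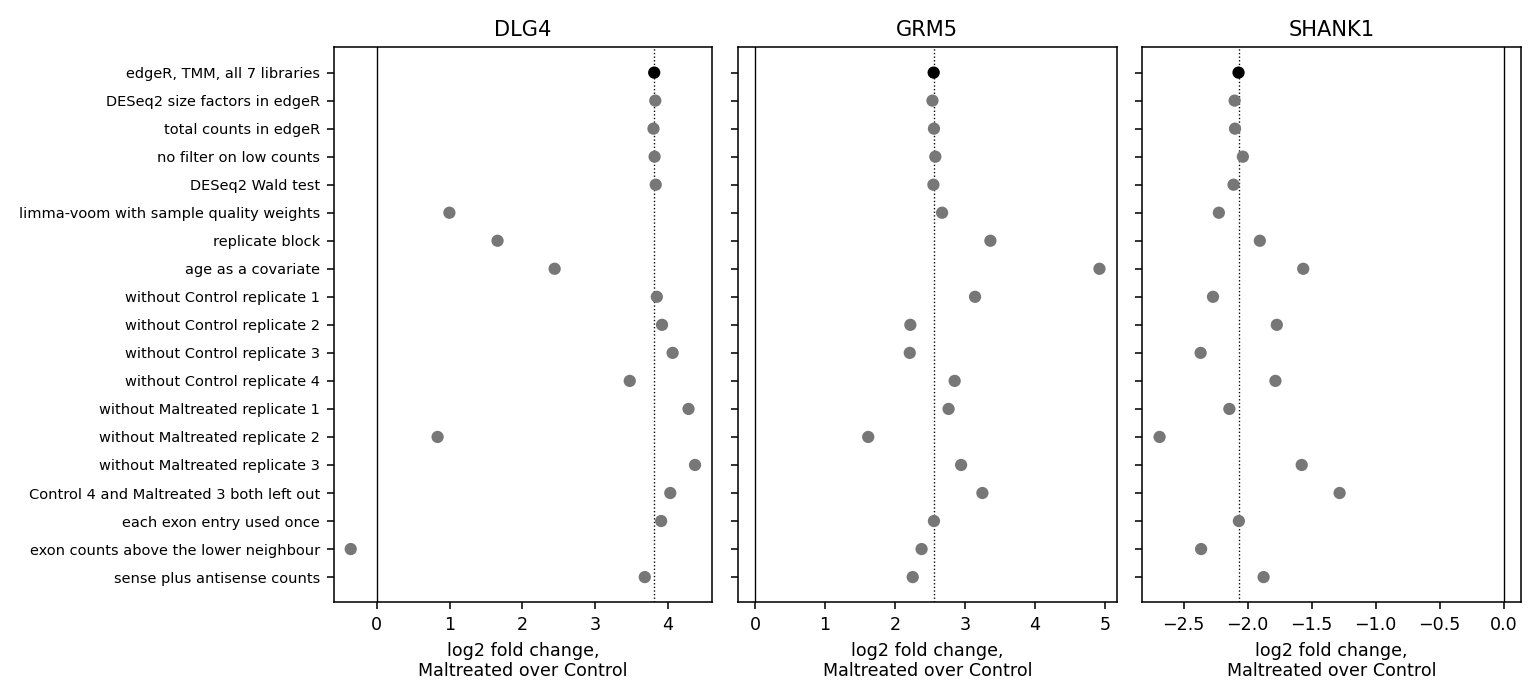
Log2 fold change of Maltreated over Control for DLG4, GRM5 and SHANK1 (1 panel each) under each setting (rows), with the dotted line at the value of the top row and the solid line at 0. DLG4 lies at 3.82 in the top row, at 0.84 without Maltreated 2 and at -0.36 with exon counts above the lower neighbour, while GRM5 stays above 0 and SHANK1 under 0 in every row. The rows reuse the libraries in which these genes were singled out.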

How the data were processed

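The submitters' processing notes name STAR, bedtools and featureCounts. The genome build, the strand protocol and read length are not given in the sources used here. For each library the authors deposited a forward and a reverse file with the count of reads on each exon and the fraction of the exon covered. A table of the whole series holds the deposited counts and covered fraction per gene, sense and antisense. The gene counts equalled the sums over exon entries in all 7 libraries. Of 233690 exon entries, 43085 (18.4%) repeat an exon of the same gene. RTN3 and ZC3HAV1, listed on both strands, were left out. Gene counts went into edgeR 4.0.16 under R 4.3.3 (TMM, filterByExpr with a minimum count of 10 and total of 15, quasi-likelihood test, Benjamini-Hochberg adjustment over all genes). The SE of an edgeR log2 fold change was its absolute value divided by the square root of the quasi-likelihood F. DESeq2 1.42.0 and limma 3.58.1 served as alternatives. CPM of members use TMM factors, those of marker lists all sense counts. Overlapping exon entries were merged into blocks with the highest count. Scripts were tested on simulated data. Depth ran from 5316383 to 30715268 sense counts. Intervals and floors cover counting error only. The ages of all samples differ, but the labels name no animals, so p-values measure the spread between these samples.

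The members and lists were chosen with earlier results of these data known. Named are the members, of the wider list the 3 genes in each direction with the smallest unadjusted p, the 3 genes most like DLG4, GRM5 and SHANK1 (1 of those for DLG4 is not reported here), the nearest gene on each side of a member, and genes within 100 kb with its commonest exon count in its highest library. Other genes of the same runs were named after their values were seen. SYN1, SNAP25, RBFOX3, MAP2, AQP4, MOG, GFAP and MBP were named after their values were seen. Leaving out Control 4 and Maltreated 3 together, and each library in turn for the antisense shares, was chosen after seeing the data.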

Additional observations from a re-analysis of the deposited data

Results flagged for a closer look

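Among the 4 Control libraries a single library stood far from the other 3 in 4 of the 18 member levels checked. Chance flags about 1 in 20 groups of normally distributed values, a rate that does not hold here, because 2 or 3 of the other Control libraries had a count of 0 in each of the 4 cases. GRIA2 sense RNA stood at 58.1 CPM in Control 4. GRIN1 antisense RNA stood at 5577 CPM, scaled to the antisense counts of the library, in Control 4, and GRIN2B antisense RNA at 274 CPM in Control 4. GRIA2 antisense RNA stood at 17.5 CPM in Control 3, from 9 counts (3 reads on 1 exon block). In Control 4, leukocyte genes summed to 682 CPM, neuron genes to 71.9 CPM and genes of testis somatic cells to 79.9 CPM, and their part in these levels was not tested.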

How the results depend on the processing

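In 18 alternatives 0 genes of the wider list were called. The calls over all genes, 0 on the sense strand, were 3 by the DESeq2 Wald test (CA11, CHIA and PPP2R2C) and 1 with age as a covariate (CD63), and 0 in the other 16. On the antisense strand they were 24 without a filter on low counts, 13 by DESeq2 and 0 otherwise. Leaving out each library gave 0 to 0 calls on both strands. Of 8 tested members 4 had a fold change above 0. This was 1 of 5 with exon counts above the lower neighbour, 2 of 8 with sense plus antisense counts, and 2 to 4 without each library in turn. The share of member reads in runs of identical counts was 20.4%, 8.35% without Maltreated 2 and 31.5% without Maltreated 1. With a replicate block, 0 genes were called on either strand and the log2 fold change of DLG4 was 1.66. Deviations of libraries with the same number correlated at 0.07, 0.01 and -0.02. The labels state no pairing of these libraries, and such low correlations cannot exclude one. At these depths a sense count of 0 leaves room for up to 0.4998 CPM in Control 3 and 0.487 CPM in Maltreated 2, if each read adds 1 count. For SHANK2 and GRIA2, whose exons are listed repeatedly, the room is larger. This limits what can be said of SHANK2, GRIN2B and GRIA2.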
